A study of Mus musculus with 9 samples.

Results

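The 10 genes described here, Esrrb, Nr5a2, Nr0b1, Tfcp2l1, Tbx3, Prdm14, Zfp42, Fbxo15, Gbx2 and Tcl1, belong to the network of naive pluripotency of mouse embryonic stem (ES) cells. They were taken by gene symbol from the 19938 genes that the platform annotation names, with the brightest probe set standing for each gene, and each of the 10 had 1 probe set. Transcripts were measured in 3 mouse cell lines with 3 arrays a line. P19 is an embryonal carcinoma line, the stem cells of a teratocarcinoma. R1 is an ES cell line. The other line was made by moving P19 nuclei into enucleated B6D2F1 mouse oocytes and deriving stem cells from the cloned blastocysts. The sample labels call it only pluripotent stem cells from P19, and it is written here as P19 NTES7, its name in the study. It is 1 line, so what is particular to it and what follows from nuclear transfer cannot be told apart. All 3 lines were kept in the same medium with serum and leukemia inhibitory factor (LIF). The study's methods pre-plate mitomycin-treated mouse fibroblasts for the nuclear transfer and other pluripotent lines, name no such cells for P19, and describe the ES cells as collected without feeder cells. Arrays of a line are biological replicates per the labels, which do not say whether the cultures were separate, and a p-value therefore measures only the spread between these arrays.

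Naive pluripotency is the state of the epiblast before implantation, which mouse ES cells keep in culture with LIF. LIF acts through STAT3, and WNT signalling lifts repression by TCF7L1, and both inputs converge on transcription factors that activate each other and hold the state when single members are lost. Esrrb, Nr5a2 and Nr0b1 encode orphan nuclear receptors, Tfcp2l1 a grainyhead-like factor, Tbx3 a T-box factor, Gbx2 a homeodomain factor, Zfp42 (also called Rex1) a zinc finger protein related to YY1, and Prdm14 a PR domain regulator that restrains FGF signalling and DNA methyltransferases. Fbxo15 and Tcl1 are not transcription factors: FBXO15 is an F-box protein of ubiquitin ligases and a classic reporter gene of ES cells, and TCL1 is a cofactor of the kinase AKT.

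Promoter sequence is shown for 4 members, Nr0b1 because its level went apart from the others, Tfcp2l1 because it shares a motif with Nr0b1 while its level did not follow, and Esrrb and Zfp42 because they hold letters of the LIF and octamer pathways. The RefSeq table (GRCm38.p6) was used for 7 members with 9 windows in all. No window was used for Tbx3, Prdm14 or Fbxo15, so the motif counts do not cover these members. Each sequence runs 5′ to 3′ on the gene's strand over the 250 bases before the annotated start, with the motif found in capitals. Nr0b1 lies on chrX:86191525-86191774 on the plus strand, Tfcp2l1 on chr1:118627695-118627944 on the plus strand, Esrrb (the first of its windows) on chr12:86360867-86361116 on the plus strand, and Zfp42 on chr8:43307010-43307259 on the minus strand.
Nr0b1: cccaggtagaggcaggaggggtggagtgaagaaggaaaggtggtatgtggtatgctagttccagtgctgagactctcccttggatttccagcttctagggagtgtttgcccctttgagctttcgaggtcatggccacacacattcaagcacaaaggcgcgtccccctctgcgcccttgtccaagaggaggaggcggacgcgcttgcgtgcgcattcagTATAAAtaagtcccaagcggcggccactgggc
Tfcp2l1: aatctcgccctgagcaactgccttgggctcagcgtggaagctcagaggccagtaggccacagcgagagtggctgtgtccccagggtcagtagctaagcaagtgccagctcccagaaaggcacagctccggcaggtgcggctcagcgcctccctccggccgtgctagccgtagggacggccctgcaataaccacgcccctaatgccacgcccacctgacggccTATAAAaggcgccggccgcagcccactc
Esrrb: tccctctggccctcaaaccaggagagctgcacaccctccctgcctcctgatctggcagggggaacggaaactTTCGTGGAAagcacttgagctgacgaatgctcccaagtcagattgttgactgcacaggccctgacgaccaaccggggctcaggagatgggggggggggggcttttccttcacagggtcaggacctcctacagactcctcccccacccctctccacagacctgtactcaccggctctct
Zfp42: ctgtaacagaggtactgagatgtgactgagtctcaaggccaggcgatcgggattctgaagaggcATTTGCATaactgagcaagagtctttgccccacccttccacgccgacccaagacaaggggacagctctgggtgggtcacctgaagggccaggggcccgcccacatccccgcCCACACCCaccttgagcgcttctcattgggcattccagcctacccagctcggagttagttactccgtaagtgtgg

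The capitals in Nr0b1 and Tfcp2l1 are the TATA letters TATAAA, which ended 27 bases before the start in Nr0b1 and 23 bases before it in Tfcp2l1. These letters were in 3 of the 9 member windows and in 13.6% of all 32851 promoter windows of 300 bases, which reach from 250 bases before a start to 50 after it. Nr5a2 held the third match, on the other strand as TTTATA and farther away, from 181 to 176 bases before its start. In Esrrb the capitals mark a STAT palindrome of the form TTCNNNGAA, found in 1 of the 9 member windows and in 8.30% of all windows. In Zfp42 they mark the octamer ATGCAAAT, here on the other strand as ATTTGCAT, and the KLF motif CCACACCC. Each of these was in 1 of the 9 member windows, and 1.74% and 3.56% of all windows held them. Both strands were searched, and no matches of different motifs overlapped. The extended half-site AAGGTCA that ESRRB and NR5A2 recognise was in 0 of the 9 windows and in 4.72% of all windows, and AAGATGG (YY1 and ZFP42, 6.34% of all) and AGGTGTGA (T-box, 1.28% of all) were also in 0 of 9. A match describes letters only, and the absence of a match says nothing of the factor outside these windows.

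Compared with P19, 9 of the 10 genes were called higher in R1 cells and 0 lower, beside a background of 3.70% higher and 3.70% lower among all 28853 probe sets. A call needed an adjusted p from limma under 0.01 and a fold over 2. P19 NTES7 cells held most of these genes between P19 and R1. Of the 9 genes other than Nr0b1, 4 (Esrrb, Tfcp2l1, Zfp42 and Fbxo15) were called higher in P19 NTES7 cells than in P19 cells, against 1.55% of all probe sets higher and 1.36% lower, and 8 were called lower in P19 NTES7 cells than in R1 cells, against 2.53% of all probe sets lower and 1.99% higher. Nr0b1 went the other way: it was near the R1 level in P19 and at least 16.7-fold lower by mean in P19 NTES7 than in either. The choice of genes singled out Nr0b1 for this pattern, so its values are given as a description and without a test. The median log2 difference of the 10 genes was 3.08 for R1 over P19, 0.69 for P19 NTES7 over P19 and -2.49 for P19 NTES7 over R1, while the medians of all probe sets were 0.03, 0.03 and 0.01. With 16 added to the intensities before log2, Fbxo15 alone of the 4 stayed called higher in P19 NTES7, and Prdm14 (log2 0.62) was no longer called between R1 and P19. Fibroblast markers had the same order of lines as most members, with intensities summed over 19 genes of 336 to 375 in P19 cells, 993 to 1227 in P19 NTES7 cells and 1494 to 1828 in R1, and their part in the levels of the members was not tested. The 3 comparisons share arrays in pairs, so their values stand side by side and are not independent of each other.

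**Figure D1:**
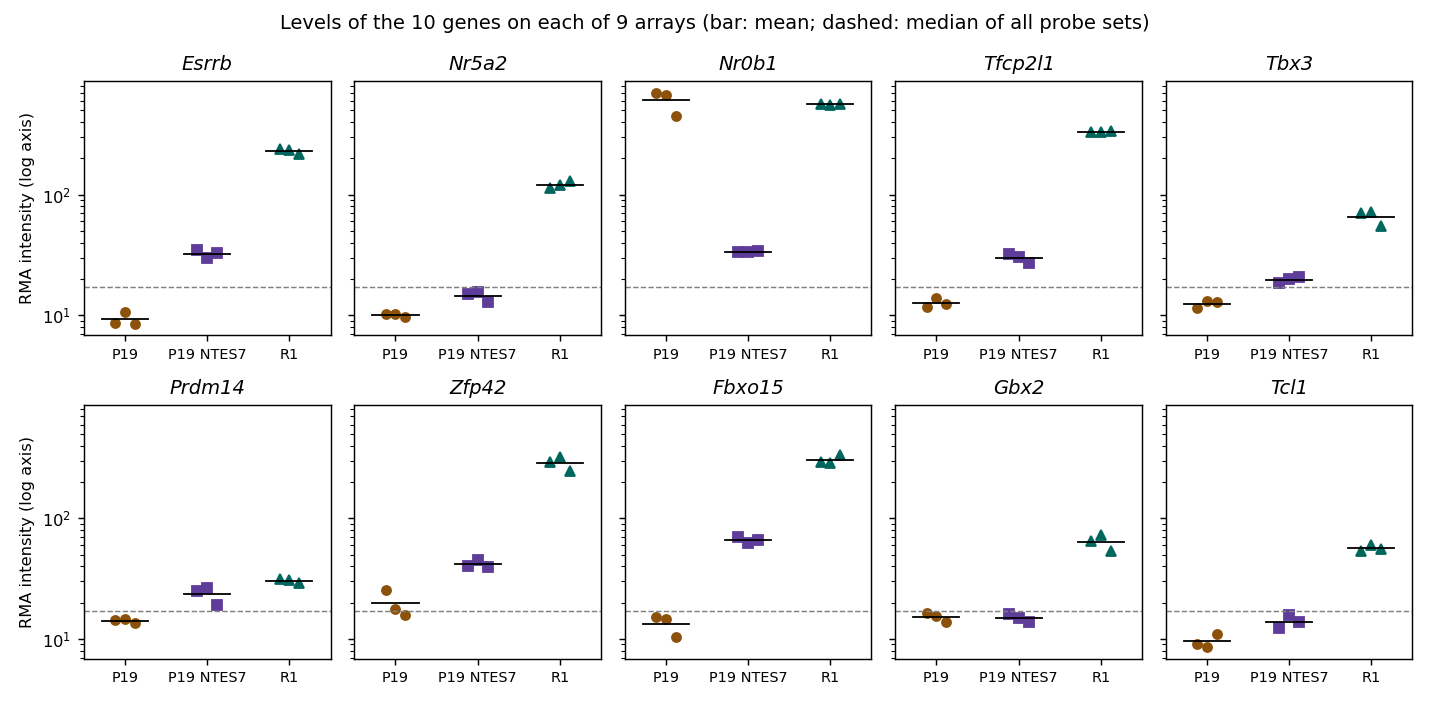
RMA intensity (log axis) of each of the 10 genes on the 9 arrays; each point is 1 array, the bar is the mean of a line and the dashed line is the median of all probe sets, 17.0. Nr0b1 alone has P19 at the top with R1, and in the other 9 genes R1 is highest, with P19 NTES7 mostly between the lines.

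Values are RMA intensities on a linear scale, the brightness of a probe set after background correction and normalization, and a level is set only against the same gene's level in another line. The median of all probe sets was 17.0. A gene under it lies in the range of the array floor, and a fold against such a line is not exact. In P19 every array was under its own median for 8 of the 10 genes. In bulk RNA, fewer cells with a transcript and less of it in each cell cannot be told apart.

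Among the nuclear receptors, Esrrb, which sits where WNT and TCF signals enter the network, had intensities of 8.56, 10.7 and 8.52 on the P19 arrays, 34.8, 29.8 and 32.7 in P19 NTES7 and 237, 235 and 218 in R1. The 3 lines formed separate steps with no overlap. The log2 difference of R1 over P19 was 4.64 ± 0.11 (SE from limma, adjusted p = 9.09e-12), that of P19 NTES7 over P19 was 1.81 ± 0.11 (adjusted p = 1.28e-07) and that of P19 NTES7 over R1 was -2.83 ± 0.11 (adjusted p = 1.08e-09). On the linear scale Esrrb was 3.51-fold higher in P19 NTES7 cells than in P19 cells and 7.10-fold higher again in R1. Nr5a2, the receptor LRH-1 that can drive Pou5f1, was at 10.2, 10.3 and 9.67 in P19 cells, 15.1, 15.6 and 13.0 in P19 NTES7 cells and 113, 120.1 and 130.2 in R1. All arrays of P19 and P19 NTES7 were below the array median, and all R1 arrays were far above it. The log2 difference of R1 over P19 was 3.59 ± 0.10 (adjusted p = 3.35e-11). Between P19 NTES7 and P19 it was 0.53 ± 0.10 (adjusted p = 0.00237), under the limit of 2-fold although the arrays did not overlap, and P19 NTES7 was 8.33-fold lower than R1 (adjusted p = 2.24e-10).

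Nr0b1 encodes DAX1, a receptor without the usual DNA-binding domain that binds NR5A receptors and OCT4 and whose gene is on the X chromosome. Its intensities were 702, 669 and 449 in P19 cells, 33.3, 33.6 and 34.1 in P19 NTES7 cells and 565, 558 and 561 in R1. The P19 and R1 arrays overlapped, the third P19 array lying below every R1 array and the other two above, while the P19 NTES7 arrays were far below both lines and close to each other. Means were 607 ± 138, 33.7 ± 0.418 and 561 ± 3.31 (SD, n = 3). The log2 difference of R1 over P19 was -0.09. In P19 NTES7 the log2 level differed by -4.14 from P19 and by -4.06 from R1, so that it was 17.7-fold lower than P19 and 16.7-fold lower than R1. Esrrb and Nr5a2, the other two receptors, were both higher in P19 NTES7 cells than in P19 cells by mean while Nr0b1 was lower.

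The paralogs of the receptors gave a contrast within the family. Nr5a1, which encodes SF-1 and recognises the same DNA letters as Nr5a2, was at 56.0, 62.5 and 59.7 in P19 cells, 21.0, 22.4 and 22.3 in P19 NTES7 cells and 9.07, 8.87 and 9.10 in R1. The order of the lines was the reverse of that of Nr5a2, with no overlap. Nr5a1 fell by 1.44 ± 0.09 on the log2 scale from P19 to P19 NTES7 (adjusted p = 1.44e-07) and by 2.72 ± 0.09 from P19 to R1 (adjusted p = 1.03e-10), and its R1 level was under the array median. Esrra and Esrrg, the paralogs of Esrrb, and Nr0b2, the paralog of Nr0b1, were called in 0 comparisons. Esrra ranged between means of 19.7 and 24.5 over the lines, Esrrg between 10.9 and 12.9 and Nr0b2 between 9.22 and 9.93.

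**Figure D2:**
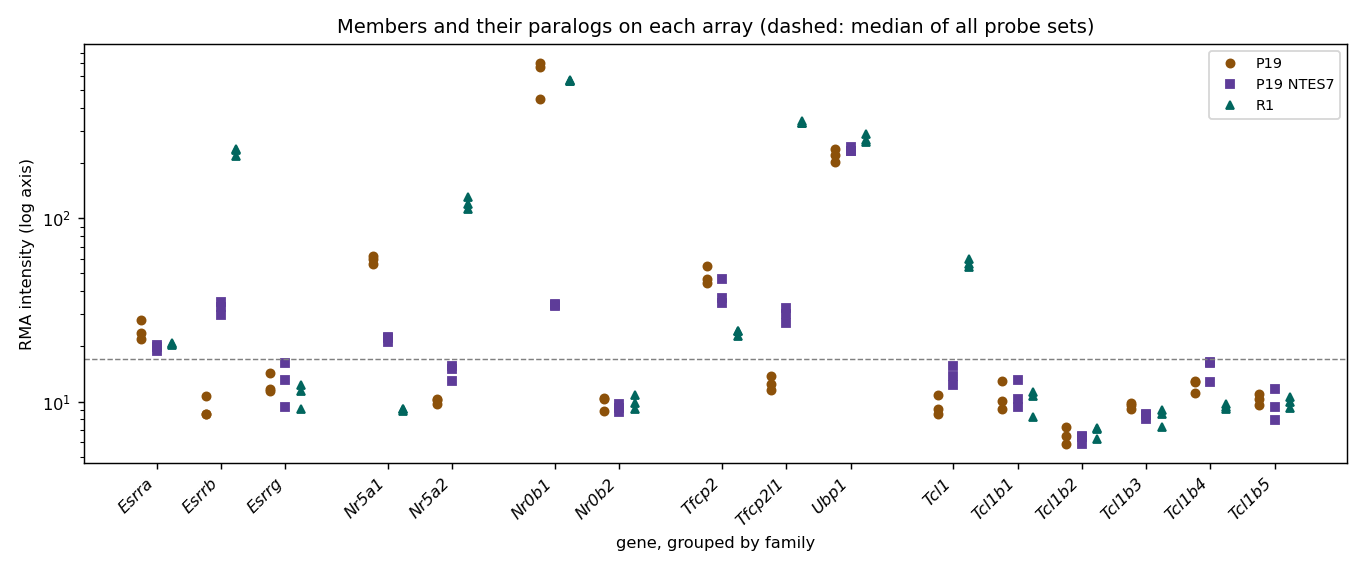
RMA intensity (log axis) of members and their paralogs, grouped by family; each point is 1 array and the dashed line is the median of all probe sets, 17.0. Points are to be compared within a gene: Nr5a1 runs down from P19 to R1 where Nr5a2 runs up, and the Tcl1b genes stay near the array floor in every line.

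Tfcp2l1, a target of LIF and STAT3 signalling, had intensities of 11.6, 13.9 and 12.5 in P19 cells, 32.5, 30.1 and 26.9 in P19 NTES7 cells and 330.0, 330.0 and 338 in R1. Its 26.4-fold difference between R1 and P19 was the largest among the 10 genes by the fitted fold (log2 4.72 ± 0.10, adjusted p = 3.74e-12). P19 NTES7 was 2.36-fold above P19 (adjusted p = 2.36e-06) and 11.2-fold below R1 (adjusted p = 1.09e-10), with no overlap between any lines. Tfcp2, a close paralog that most tissues express, ran the other way, with means of 48.6 ± 5.75 in P19 cells, 39.3 ± 6.45 in P19 NTES7 cells and 23.7 ± 0.790 in R1 (SD, n = 3). Tfcp2 was called lower in R1 than in P19 (log2 -1.03, adjusted p = 2.06e-05), and its difference between P19 NTES7 and P19 did not pass (adjusted p = 0.108). Grhl1, a more distant relative, was called higher in R1 than in P19 at 19.1 ± 2.04 against 9.51 ± 0.670 (adjusted p = 1.11e-05). Ubp1, another paralog, had means from 220.2 to 272 and was called in 0 comparisons.

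Tbx3, a T-box factor downstream of LIF and of phosphoinositide 3-kinase, was at 11.4, 13.2 and 12.8 in P19 cells, 18.4, 20.0 and 20.7 in P19 NTES7 cells and 69.9, 71.3 and 55.0 in R1. The lines did not overlap, and all P19 arrays were under the array median. R1 was 5.22-fold above P19 (log2 2.38 ± 0.12, adjusted p = 3.39e-09), and P19 NTES7 was 3.30-fold below R1 (adjusted p = 1.42e-07). The difference of 0.66 ± 0.12 between P19 NTES7 and P19 (adjusted p = 0.00113) was under the limit of 2-fold. Gbx2, a homeobox gene that LIF and STAT3 induce, overlapped in the lines of P19 origin, both under the array median by mean, at 16.4, 15.5 and 13.8 in P19 and 16.03, 14.9 and 13.7 in P19 NTES7, and it was at 65.0, 73.1 and 53.4 in R1. It was the only other member, beside Nr0b1, in which P19 NTES7 was not above P19 by mean. The log2 difference of P19 NTES7 over P19 was -0.03, with a 95% interval from -0.30 to 0.24 (adjusted p = 0.907), whereas R1 was 4.17-fold above P19 (adjusted p = 2.45e-08). Tbx2, Tbx4, Tbx5 and Gbx1, their paralogs, were called in 0 comparisons.

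Prdm14 had the smallest range among the genes other than Nr0b1. It was at 14.4, 14.7 and 13.5 in P19 cells, 25.2, 26.4 and 19.01 in P19 NTES7 cells and 31.3, 30.7 and 29.4 in R1. P19 lay under the array median, and the P19 NTES7 arrays reached toward R1 without overlapping it. R1 was 2.14-fold above P19 (log2 1.10 ± 0.12, adjusted p = 7.86e-06), P19 NTES7 was 1.64-fold above P19 (adjusted p = 8.43e-04), and the difference of -0.38 between P19 NTES7 and R1, with a 95% interval from -0.64 to -0.13, did not pass (adjusted p = 0.0305). Zfp42 was at 25.6, 17.6 and 15.8 in P19 cells, 40.6, 45.2 and 39.1 in P19 NTES7 cells and 293, 324 and 249 in R1. The first P19 array stood above the other two, yet below every P19 NTES7 array. Zfp42 was 14.9-fold higher in R1 than in P19 (log2 3.90 ± 0.16, adjusted p = 6.39e-10). In P19 NTES7 it was 2.16-fold higher than in P19 (log2 1.11 ± 0.16, adjusted p = 2.51e-04). This last call was lost without the third P19 array, where the log2 difference was 0.97. Yy1, from whose family Zfp42 derives, had means of 241 in P19 cells, 180.1 in P19 NTES7 cells and 267 in R1 and was called in 0 comparisons, as were Prdm1 and Prdm15.

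The partner genes that are not transcription factors followed the same order of lines. Fbxo15 was at 15.3, 14.5 and 10.3 in P19 cells, 70.4, 62.5 and 66.2 in P19 NTES7 cells and 292, 285 and 335 in R1. It was the member with the largest fold between P19 NTES7 and P19 in the upward direction, 5.02-fold (log2 2.33 ± 0.14, adjusted p = 9.96e-08), and R1 was a further 4.57-fold higher (adjusted p = 7.96e-08). Skp1, Cul1 and Rbx1, the other subunits of the ligase that FBXO15 joins, were called in 0 comparisons. Tcl1 was at 9.13, 8.53 and 10.9 in P19 cells, 12.2, 15.7 and 13.8 in P19 NTES7 cells and 54.0, 59.9 and 56.0 in R1. P19 and P19 NTES7 were under the array median throughout, and their difference of 0.55 ± 0.12 (adjusted p = 0.00543) was under the limit of 2-fold. R1 was 5.97-fold above P19 (log2 2.58 ± 0.12, adjusted p = 2.11e-09) and 4.09-fold above P19 NTES7 (adjusted p = 3.98e-08).

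**Figure D3:**
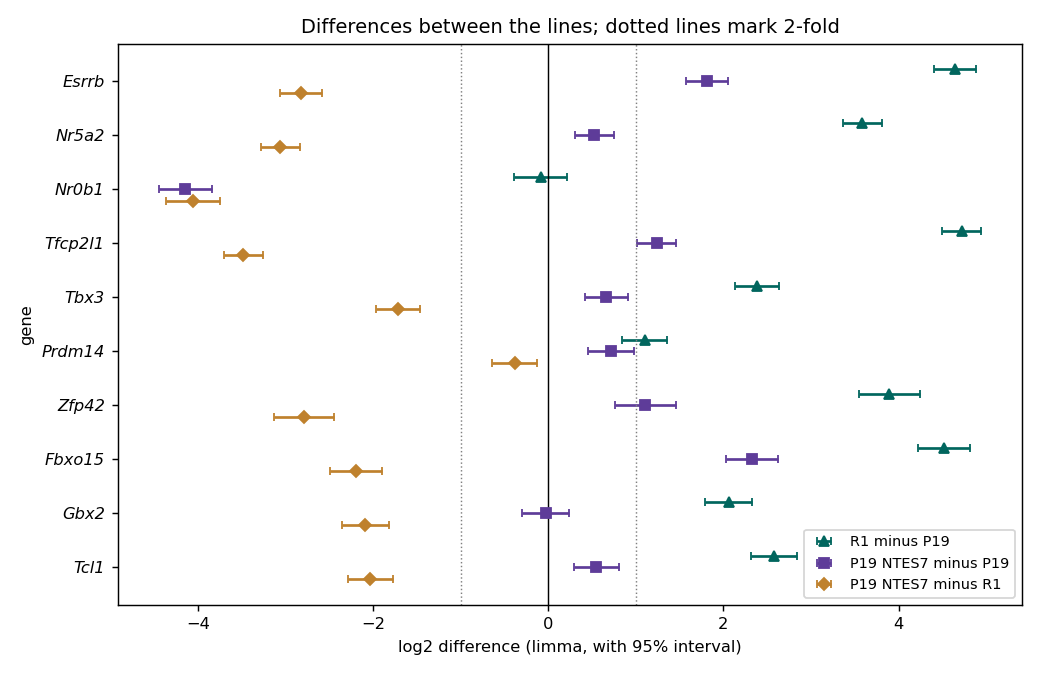
Log2 differences between the lines for each of the 10 genes, with 95% intervals from limma; dotted lines mark 2-fold. R1 minus P19 lies right of 2-fold for 9 genes, and P19 NTES7 minus P19 lies right of it for 4. Nr0b1 was chosen for its pattern, so its points are a description and its intervals are not a test.

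The arrays of R1 lay wholly above those of P19 in 9 of 10 genes, where this held for 22.6% of all probe sets, and the reverse for 22.6%. Nr0b1 was chosen for its low level in P19 NTES7 and is left out of the next counts. Of the 9 other genes, P19 NTES7 lay wholly above P19 in 8, against 17.3% of all probe sets above and 17.0% below. It lay wholly below R1 in each of these 9, against 17.3% below and 19.3% above. Nr5a2, Tbx3, Prdm14 and Tcl1 had an adjusted p under 0.01 between P19 NTES7 and P19 but a fold under 2. On the log2 scale P19 NTES7 stood at a share of 0.391 of the way from P19 to R1 for Esrrb, 0.515 for Fbxo15 and 0.650 for Prdm14. The shares were 0.285 for Zfp42, 0.279 for Tbx3, 0.262 for Tfcp2l1, 0.213 for Tcl1 and 0.147 for Nr5a2. The share of Gbx2 was -0.0144. Since P19 is under the array median for most of these genes, the shares are not exact. The share of Prdm14 rests on a small range, and its SD over the P19 NTES7 arrays was 0.233.

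The genes nearest in pattern to Nr0b1 were not members of the network. Likeness was the root mean square difference of log2 values, centred on each gene's mean over the 9 arrays, so small values mean a like pattern. The nearest genes were Eif2s3y (0.29) and Uty (0.51), both on the Y chromosome, Utf1 (0.65), a chromatin factor of pluripotent cells, Grik3 (0.90), a kainate receptor subunit, and Shcbp1 (0.97), an SHC-binding protein of dividing cells. Utf1 was at 522, 500.4 and 391 in P19 cells, 94.8, 54.3 and 71.3 in P19 NTES7 cells and 649.8, 606 and 496 in R1. As with Nr0b1, P19 and R1 overlapped and P19 NTES7 stood apart below them. Eif2s3y had means of 156 in P19 cells, 8.60 in P19 NTES7 cells and 198 in R1, so its P19 NTES7 level was at the array floor, whereas Nr0b1 at 33.7 was not. The nearest member, Gbx2, ranked 611 by likeness to Nr0b1. The genes nearest to Nr0b1 were chosen for their likeness, and their values are a description. Nr0b1 was itself chosen for leaving the common direction, so its distance from the other members was set by that choice.

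Esrrb had other members close to it. Its nearest genes were Pla2g1b (0.24), a secreted phospholipase, Zfp640 (0.30), Tfcp2l1 (0.31), Fbxo15 (0.32) and Zfp980 (0.34), the Zfp genes encoding zinc finger proteins. Zfp42 ranked 7 and Nr5a2 ranked 13 by likeness to Esrrb. Tcl1 ranked 55, Tbx3 82, Gbx2 145 and Prdm14 678, and Nr0b1 ranked 19734. The members were chosen with earlier results of these data known, so these ranks are a description. The far rank of Nr0b1 was set by its choice for leaving the common direction. Pla2g1b had means of 30.01 ± 3.03 in P19 cells, 80.0 ± 11.1 in P19 NTES7 cells and 709 ± 15.9 in R1 (SD, n = 3).

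The genes beside Nr0b1 on the X chromosome were not called with it. Of the 10 measured genes nearest in RefSeq order, 5 on each side, 0 were called in any comparison, and 8 were under the median of all probe sets in every line. Tab3, an adaptor of the kinase TAK1 and the only neighbour well above the median, had means of 138 in P19 cells, 184 in P19 NTES7 cells and 199.8 in R1. Beside Tcl1, 0 of 10 were called, among them 5 genes of its own cluster, Tcl1b1 to Tcl1b5, with means from 6.24 to 15.1. Over all members, 10 of 100 neighbours were called between R1 and P19, 4 higher and 6 lower, where 7.40% of all probe sets were called. Beside Zfp42, Triml1 and Triml2, which encode tripartite motif proteins, were at 9.61 and 8.01 in P19, 10.8 and 7.87 in P19 NTES7 and 98.6 and 179.9 in R1. These were called higher in R1 and, unlike Zfp42, stayed under the array median in P19 NTES7. They were picked from the neighbours after their values were seen.

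**Figure D4:**
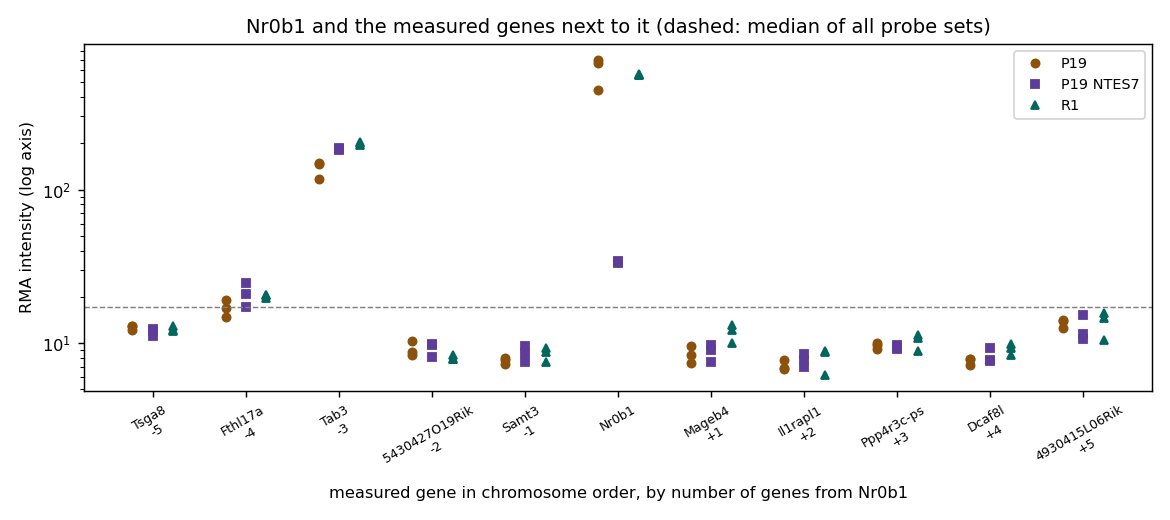
RMA intensity (log axis) of Nr0b1 and the 5 measured genes on each side in chromosome order; each point is 1 array and the dashed line is the median of all probe sets, 17.0. Among the genes shown, Nr0b1 alone separates P19 NTES7 from the other lines by more than 2-fold.

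Other genes of the naive state were also higher in R1. Of 14 measured, 14 were called higher in R1 than in P19 and 0 lower (median log2 1.93). In P19 NTES7, 5 were higher and 0 lower than in P19 (median 0.66), and 10 lower and 0 higher than in R1 (median -1.43). The shares of all probe sets, also for the lists below, were 3.70% higher and 3.70% lower in R1 than in P19. For P19 NTES7 they were 1.55% higher and 1.36% lower than P19, and 1.99% higher and 2.53% lower than R1. The lists were chosen with earlier results of these data known, so their counts are a description. Dppa5a, an RNA-binding protein gene of ES cells, had means of 19.5 in P19 cells, 125 in P19 NTES7 cells and 2238 in R1. The factors Klf2, Klf4 and Klf5 were called in each of the 3 comparisons and lay in the same order, Klf4 at 13.0 ± 0.711, 41.5 ± 4.25 and 126 ± 4.56 (SD, n = 3). Jam2, a junctional adhesion molecule, and Zfp57, which keeps imprints methylated, resembled Gbx2: Jam2 was at 25.8, 25.4 and 189 and Zfp57 at 52.5, 40.7 and 402 in P19, P19 NTES7 and R1. Fgf4, the growth factor that moves ES cells out of the naive state, was at 38.1, 24.6 and 141. For Jam2, Zfp57 and Fgf4 the difference between P19 NTES7 and P19 was not called.

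The core factors of pluripotency were less divided. Of 9 measured, 2 were called higher in R1 than in P19 and 0 lower (median log2 0.36), and 1 higher and 1 lower in P19 NTES7 cells than in P19 cells. Nanog, at 178 ± 15.6 in P19 cells, rose to 627 ± 11.4 in P19 NTES7 (log2 1.82, adjusted p = 4.28e-08) and was 913 ± 59.4 in R1. Utf1, near to Nr0b1 in pattern as given above, was the gene called lower in P19 NTES7. Pou5f1 and Sox2 were called in 0 comparisons, though some differences under 2-fold had a limma adjusted p under 0.01. Pou5f1 had means of 2196 in P19 cells, 1471 in P19 NTES7 cells and 1470.1 in R1. It was highest in P19 (adjusted p = 0.00307 against P19 NTES7 and 0.00157 against R1). Sox2 was at 665, 542 and 884, higher in R1 than in P19 (adjusted p = 0.0054) and P19 NTES7 (adjusted p = 1.31e-04). Zscan10, a zinc finger partner of those factors, was at 104 in P19 cells, 80.2 in P19 NTES7 cells and 213 in R1, and was called higher in R1 than in either.

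Upstream of the members, the LIF and STAT3 pathway had 2 of 10 genes called higher in R1 than in P19 (median log2 0.51) and 2 of 10 in P19 NTES7 cells than in P19 cells (median 0.54), with 0 lower in both. Pim1, a kinase gene that STAT3 induces, had means of 46.3 in P19 cells, 117 in P19 NTES7 cells and 134 in R1. Bcl3, a nuclear IκB protein gene, was at 15.4, 24.3 and 79.0, and Jak2, the receptor-bound kinase, was highest in P19 NTES7 at 18.6, 47.0 and 28.2. Stat3 itself was called in 0 comparisons, with means of 289 in P19 cells, 383 in P19 NTES7 cells and 220.3 in R1.

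Among 10 measured genes of WNT, GSK3 and TCF signalling and ESRRB partners, 4 were called higher in R1 than in P19 and 0 lower (median log2 -0.06), and 1 higher in P19 NTES7 cells than in P19 cells. Axin2, a feedback target of WNT, was at 15.8 in P19 cells, 62.0 in P19 NTES7 cells and 40.6 in R1. Ncoa3, the coactivator through which ESRRB acts in ES cells, had intensities of 182, 188 and 164 in P19 cells, 187, 168 and 186 in P19 NTES7 cells and 472, 476 and 386 in R1. Ncoa3 thus overlapped in the lines of P19 origin, and its R1 level was higher by 1.31 ± 0.11 on the log2 scale (adjusted p = 5.80e-07). Tcf7l1, the repressor of Esrrb, was called in 0 comparisons, with means of 236, 163 and 170.3.

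Genes tied to Prdm14 moved both ways. Of 9 measured, 3 were called higher in R1 than in P19 and 1 lower (median log2 0.61), and 2 higher and 1 lower in P19 NTES7 cells than in P19 cells. Dnmt3l, the cofactor of de novo methylation, was at 24.3 in P19 cells, 118 in P19 NTES7 cells and 281 in R1. Dnmt3a, the methyltransferase, fell from 343 ± 27.0 in P19 to 76.5 ± 6.64 in P19 NTES7 (adjusted p = 1.60e-07) and was 88.2 ± 18.8 in R1. Tfap2c, an AP-2 factor, was at 18.6, 55.1 and 105. Fgfr1 and Fgfr2, receptors in the pathway that PRDM14 restrains, were called in 0 comparisons. In the TCL1 and AKT pathway, Pik3cb, a catalytic subunit of phosphoinositide 3-kinase, was the gene of 5 measured that was called, at 102, 115 and 279.

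Genes of the primed epiblast, the state after implantation, moved in both directions. Of 14 measured, 3 were called higher and 2 lower in R1 than in P19 (median log2 0.06), and 2 higher and 3 lower in P19 NTES7 cells than in P19 cells (median -0.37). Lefty2, a NODAL inhibitor, was at 11.95 in P19 cells, 123 in P19 NTES7 cells and 98.9 in R1, and Fgf5 was at 20.8, 41.9 and 73.4. Zic5, a zinc finger factor, shared the low P19 NTES7 level with Nr0b1 and Utf1, at 206, 75.9 and 214, and was called lower in P19 NTES7 than in either line. Otx2 was called lower in R1 than in P19, at 214, 137 and 102.

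**Figure D5:**
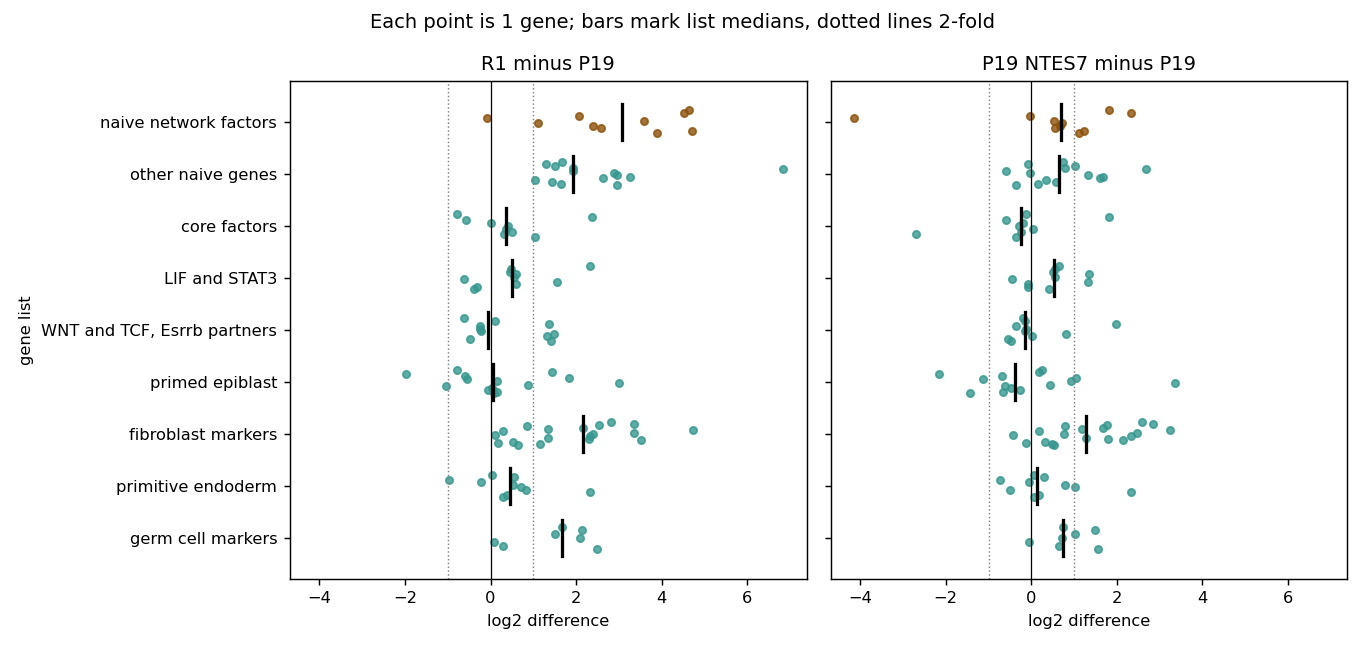
Log2 differences of single genes by list, R1 minus P19 on the left and P19 NTES7 minus P19 on the right; each point is 1 gene, bars mark list medians and dotted lines 2-fold. The members and the other naive genes lie mostly right of 2-fold in R1, at medians of 3.08 and 1.93, as do the fibroblast markers, at 2.16.

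Fibroblast markers, the genes of the feeder cell type, were called as follows. Of 19 measured, 13 were called higher in R1 than in P19 and 0 lower (median log2 2.16), 11 higher and 0 lower in P19 NTES7 cells than in P19 cells (median 1.28), and 3 lower and 0 higher in P19 NTES7 than in R1 (median -0.49). Their sum in P19 NTES7 thus lay between those of P19 and R1, and their part in the levels of the members was not tested. Dcn, a matrix proteoglycan of fibroblasts, was at 8.45 in P19 cells, 80.6 in P19 NTES7 cells and 232 in R1, while Fap and S100a4 were under the median in every line.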

How the data were processed

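RNA was hybridised to Affymetrix Gene 1.0 ST arrays, 3 for each of P19, P19 NTES7 and R1. The authors deposited intensities on the linear scale, made with Robust Multichip Average (RMA) per the submitters' processing notes. The methods mention a rescaled median, which these values do not have: array medians were 16.5 to 17.5. Of 28853 probe sets, the platform annotation gave 21789 a single symbol, 1621 several and 5443 none. The deposited intensities were taken to log2, and limma 3.58.1 under R 4.3.3 estimated the mean of each line from the 9 arrays in 1 model. P-values were Benjamini-Hochberg adjusted over all probe sets, and a call needed an adjusted p under 0.01 and a fold over 2. Levels are given with the SD over arrays. The fit was tested on simulated data.

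The members and the gene lists were chosen with earlier results of these data known. Genes named are the members, their measured paralogs, up to 4 called genes of each list and comparison by largest log2 difference, the neighbours of Nr0b1 and Tcl1, and the 5 genes most like Nr0b1 and Esrrb. Genes outside this rule (Pou5f1, Sox2, Stat3, Tcf7l1, Fgfr1, Fgfr2, Otx2, Fap, S100a4, Cdx2, Sox17, Afp and the FBXO15 partners, all on the lists, and Triml1 and Triml2) were added for their role or after their values were seen. Arrays of a line correlated at r from 0.989 to 0.998 over probe sets, and their number limits the precision. Symbols and promoters came from RefSeq (GRCm38.p6). In all 19 alternatives were run: other normalizations, an added offset, filters, other variance priors, the test of the methods, a replicate block and each array left out.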

Additional observations from a re-analysis of the deposited data

How the results depend on the processing

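The direction of every member with a call was kept in all 19 alternatives, and Nr0b1 stayed lower in P19 NTES7 than in both other lines. Adding 16 to the intensities before log2, which shrinks differences near the array floor, left 1 member called higher in P19 NTES7 cells than in P19 cells in place of 4: the log2 differences were 0.94 for Esrrb, 0.68 for Tfcp2l1 and 0.70 for Zfp42, with that of Prdm14 between R1 and P19 at 0.62 and those of Nr0b1 at -3.62 from P19 and -3.54 from R1. It called 1088 probe sets between R1 and P19 (2135 without it), 412 between P19 NTES7 and P19 (839) and 709 between P19 NTES7 and R1 (1305). With no fold limit these were 6623, 3259 and 4928 of all 28853 probe sets, and 8 members were called higher in P19 NTES7 cells than in P19 cells. Leaving out single arrays gave 3 to 4 members higher in P19 NTES7 cells than in P19 cells. Zfp42 (0.97) was lost without P19 replicate 3. In the other comparisons 9 were higher in R1 than in P19 and 9 lower in P19 NTES7 than in R1 throughout. The 9 lower include Nr0b1, which was chosen for its low level there, so its place in this count is not a test. Deviations of same-numbered arrays correlated from -0.22 to 0.04, so the numbers do not pair the arrays. Those of differently numbered arrays correlated from -0.15 to 0.21, both ends between R1 and P19 NTES7 arrays, and what these arrays share was not tested. With the replicate number as a block, 2136, 837 and 1302 probe sets were called. The member counts were then unchanged, at 9 upward for R1 over P19 and 4 upward for P19 NTES7 over P19. For P19 NTES7 over R1 the count was again 9 downward. Nr0b1 is in this last count by its choice, so its place there is again not a test. For genes under the array median, signal over background limits the size of a fold that can be measured.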

Other observations

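Most germ cell markers measured were called higher in R1 than in P19, and fewer trophectoderm, primitive endoderm and neural markers were called. Of 7 measured germ cell genes, 5 were called higher in R1 than in P19 and 0 lower (median log2 1.67), and 3 higher in P19 NTES7 cells than in P19 cells (median 0.74). Ddx4, the germ cell helicase VASA, had means of 10.2 in P19 cells, 28.9 in P19 NTES7 cells and 45.1 in R1, and Kit, a receptor tyrosine kinase, was at 55.3, 91.0 and 236. Prdm1, a paralog of Prdm14 in the germ line, was called in 0 comparisons. This list holds Dppa3 and Dazl, which are also among the naive genes, and Tfap2c, which is among the genes tied to Prdm14.

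Of 9 trophectoderm markers, 2 were called higher in R1 than in P19, 2 in P19 NTES7 cells than in P19 cells and 0 lower in both. The genes called were Eomes and Tfap2c in both comparisons, and Tfap2c is also among the germ cell markers. Eomes, a T-box factor related to Tbx3, was highest in P19 NTES7 at 146 ± 12.4, with 27.2 ± 6.16 in P19 and 79.2 ± 8.38 in R1 (SD, n = 3), while Cdx2 was under the array median in every line. Of 10 primitive endoderm markers, 1 was called higher in R1 than in P19 and 2 in P19 NTES7 cells than in P19 cells. Pdgfra, which is also among the fibroblast markers, was called in both comparisons. Gata6 was the other gene called in P19 NTES7, at 17.6 in P19 cells, 35.8 in P19 NTES7 cells and 28.7 in R1, while Sox17 and Afp were under the median throughout. Of 6 measured neural markers, Pax6 was called higher and Nes lower in R1 than in P19, and 0 were called between P19 NTES7 and P19.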
